A study of Mus musculus with 16 samples.

Results

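The lysyl oxidase family consists in the mouse of Lox, Loxl1, Loxl2, Loxl3 and Loxl4. These 5 genes, of 34650 gene names on the array, were represented by 10 of the 55681 non-control probes: 2 each for Lox, Loxl1 and Loxl4, 3 for Loxl2 and 1 for Loxl3. Every probe whose gene name was that of a family member was taken, and each is described on its own. RNA came from fibroblasts of mouse lung in primary culture, which had undergone at least 3 passages and were harvested 48 hours after transfection with a small interfering RNA (siRNA), a short double strand that directs the degradation of a matching mRNA. The groups were siLox, siLoxL1 and siLoxL2, which received an siRNA against Lox, Loxl1 or Loxl2, and scr, which received a scrambled control siRNA, with 4 one-colour arrays each. All groups therefore had been transfected. Untransfected cells are not analysed here, and the labels name 1 siRNA treatment per target, without sequence or dose and without strain, age or sex of the mice. The title of the series speaks of exogenous expression, whereas the labels describe a knockdown, and the groups follow the labels.

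Lysyl oxidases are secreted, copper-dependent amine oxidases. They turn lysine side chains of collagen and elastin into reactive aldehydes, from which the cross-links of the extracellular matrix form. Lox and Loxl1 are made as proenzymes whose propeptide is cut off outside the cell, whereas Loxl2, Loxl3 and Loxl4 carry scavenger receptor domains in front of the catalytic domain. In mouse lungs, loss of Lox or of Loxl1 is known to disturb the elastic fibres.

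Slide 1 carried the arrays of siLox and scr, and slide 2 those of siLoxL1 and siLoxL2. The slides were scanned separately, and the 75th percentile of the log2 signal, to which every array was scaled, was 8.67 to 9.03 on slide 1 and 9.74 to 9.90 on slide 2. A level below is the log2 signal relative to that percentile, so that levels of different probes are not comparable. Only siLox against scr and siLoxL1 against siLoxL2 lie within a slide. In the other 4 comparisons the slide and the siRNA cannot be told apart. Fibroblast markers were well above background on every array for 10 of 10 genes, and those of leukocytes and macrophages for 7 of 7 and of mesothelium for 5 of 5, and so were Pecam1, Kdr and Vwf of 6 endothelial markers and Acta2, Myh11, Des, Cspg4 and Notch3 of 6 markers of smooth muscle and pericytes. Of 7 epithelial markers, 5, among them Epcam and Cdh1, were above background on no array. The labels do not say that replicates came from separate cultures or animals, so that p-values measure the spread between these samples, which may be technical, and 4 arrays per group limit the precision. In bulk RNA, fewer cells of a type and less RNA per cell cannot be told apart.

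All 10 probes were well above background on 16 of 16 arrays, none was saturated and no spot was marked as an outlier. Each is 60 bases long and has 1 spot per array. They are named here by the start position that the scanner files give within the transcript. In mouse build mm9, the Loxl1 probes at 1553 and 2075 lie at chr9:58145451-58145510 and chr9:58138570-58138629, on the minus strand. The Loxl2 probes at 2212, 2293 and 4792 lie at chr14:70090017-70090076, chr14:70092141-70092200 and chr14:70095254-70095313, on the plus strand. The Loxl3 probe at 3378 lies at chr6:83001888-83001947 on the plus strand, and the Loxl4 probes at 3413 and 4826 at chr19:42668733-42668792 and chr19:42667320-42667379 on the minus strand. An exon annotation of that build was not used here.

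A probe could in principle also bind the transcript of a relative. Only the probe sequences of different members were compared with each other, not whole transcripts, so that such binding was not tested. The following 4 probes are those of Loxl1 and Loxl2, the genes targeted on slide 2, that have a reading frame without a stop codon. The Loxl2 probe at 4792 has no such frame and is not printed. The sequences are given as in the scanner files, 5′ to 3′, with the longest run shared with a probe of another family member in capitals.
Loxl1 1553: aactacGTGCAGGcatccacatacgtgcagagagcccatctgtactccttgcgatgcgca
Loxl1 2075: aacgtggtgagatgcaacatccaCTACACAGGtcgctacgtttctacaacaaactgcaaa
Loxl2 2212: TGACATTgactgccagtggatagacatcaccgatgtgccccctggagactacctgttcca
Loxl2 2293: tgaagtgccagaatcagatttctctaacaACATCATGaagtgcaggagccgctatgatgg
The run of 9 bases in Loxl1 2075, the run of 8 in Loxl2 2293 and the run of 7 in Loxl2 2212 are shared with the Lox probe at 1646, and the run of 7 in Loxl1 1553 with Loxl2 2293. Over the 39 pairs of probes of different genes, 9 bases was the longest shared run and 6 the median. The best ungapped identity over at least 40 bases was 34.0% to 60.8% with a median of 38.5%, and the highest value belonged to Lox 1646 and Loxl1 2075.

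Transfection with siLox lowered Lox at both of its probes, and the remaining signal differed between them. Lox makes the founding enzyme of the family, and in mouse build mm9 its probes at 1646 and 3639 lie at chr18:52680465-52680524 and chr18:52676912-52676971, on the minus strand. The Lox probe at 1646 had levels of 1.17, 1.47, 1.56 and 2.21 in siLox cells (replicates 1 to 4), against 4.03, 3.75, 3.72 and 3.56 in scr cells. The brightest Lox probe, at 3639, had levels of 0.39, 0.89, 1.25 and 2.04 in siLox cells, against 4.16, 4.08, 4.15 and 3.88 in scr cells. Every siLox array lay below every scr array at both, and replicate 4 was the highest siLox array at each. The log2 fold change was -2.17 ± 0.22 (SE, limma, adjusted p = 0.00317) at 1646, a signal of 22.3% of scr with a 95% interval of 15.7% to 31.6%. It was -2.92 ± 0.31 (adjusted p = 0.00387) at 3639, a signal of 13.2% of scr with an interval of 7.97% to 21.9%. The exact two-sided permutation test gave p = 0.0286 at each, the smallest that 4 against 4 arrays allow. The fold changes of the 2 probes differed by 0.76 on the log2 scale, and the per-array difference between the probes did not overlap between siLox and scr.

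**Figure D1:**
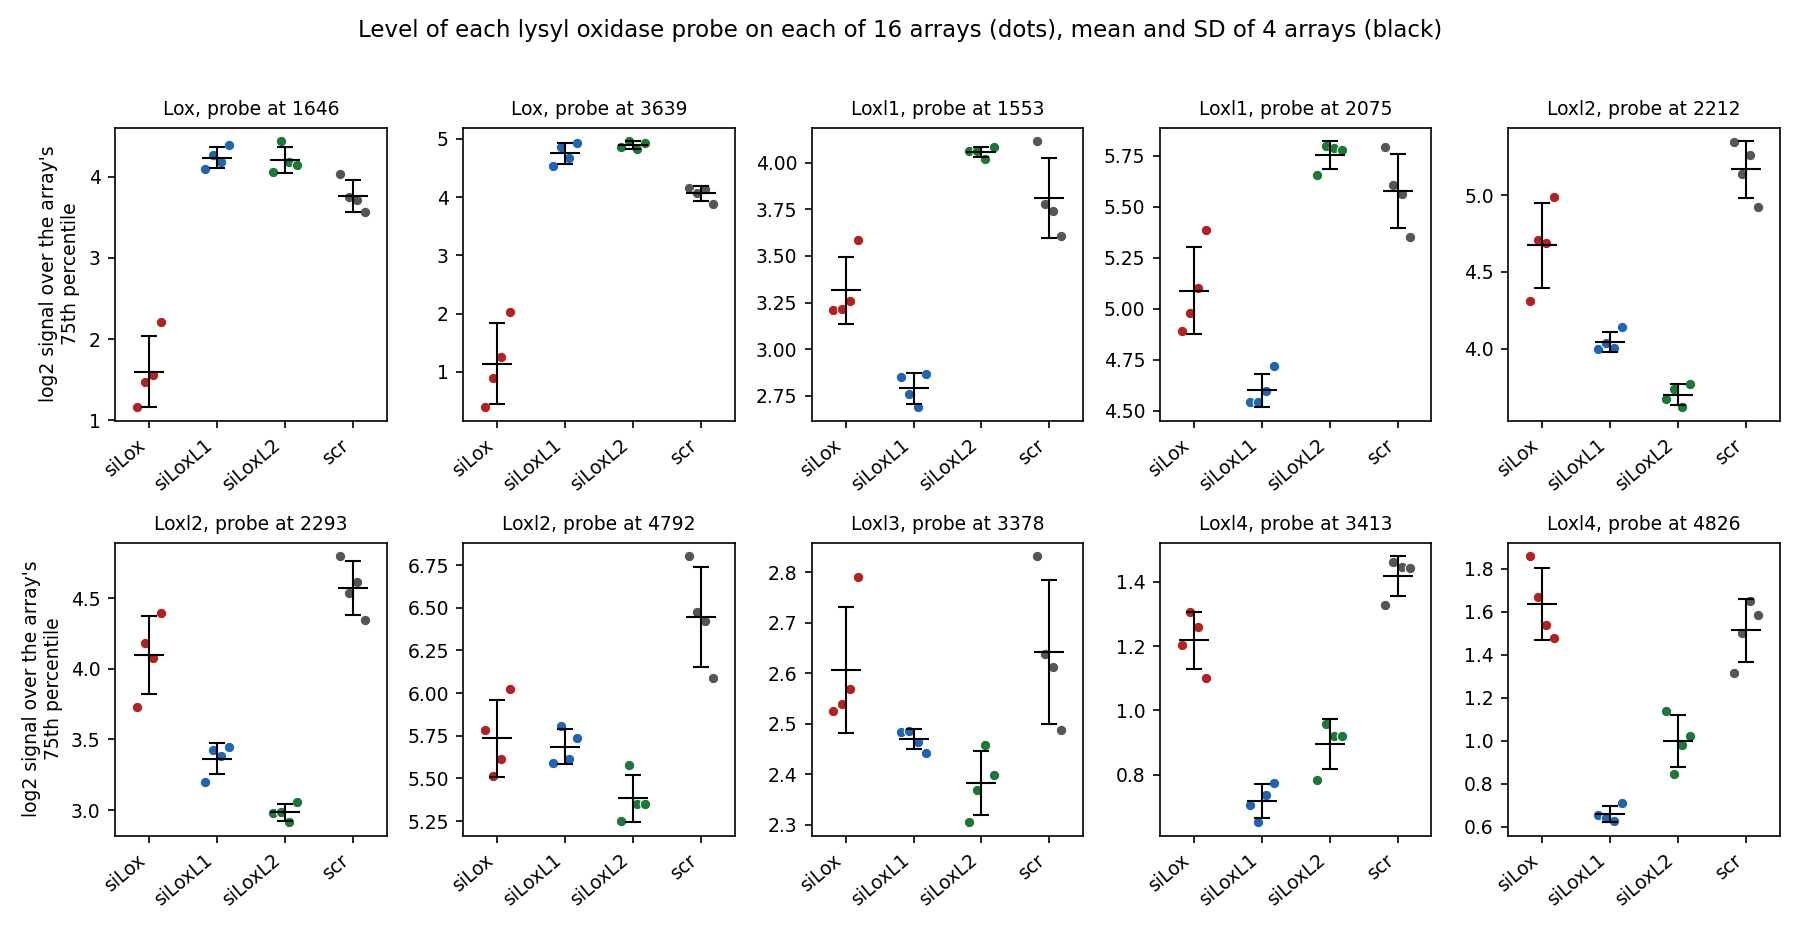
Level of each of the 10 lysyl oxidase probes, as log2 signal over the 75th percentile of the array, on the 4 arrays of siLox, siLoxL1, siLoxL2 and scr (dots in replicate order, black bars mean and SD). Each panel has its own vertical scale, and the Lox probes in siLox reach 2.21 at most, below every other array.

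The siLox arrays also had lower signals at probes of Loxl1 and Loxl2, at a smaller size than at Lox. Over the family, 5 of 10 probes passed an adjusted p of 0.05 between siLox and scr, all lower, where 21.1% of all 32430 tested probes passed in either direction and 11.5% were lower. Groups did not overlap at 5 of the 10 probes, against 28.7% of all tested probes. A probe was tested if well above background on all 4 arrays of any group. The shares of all tested probes, here and below, thus include probes not detected in the groups compared. The family probes were above background on all 16 arrays. The 5 that passed were both Lox probes, both Loxl1 probes and the Loxl2 probe at 4792. With all non-control probes tested, the Loxl1 probes (adjusted p = 0.0809 and 0.0837) and Loxl2 4792 (0.0591) did not pass. Leaving out replicate 1, 2 or 3 of either group left 2 family probes past the threshold, those of Lox, while the share of all tested probes that passed was 5.41% to 12.4%. Leaving out replicate 4 of siLox, of scr or of both gave 7 family probes, which then included all 3 Loxl2 probes, while the share of all tested probes was 19.4%, 30.6% and 30.1%.

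Loxl1, whose enzyme is known for its role in elastic fibres, had levels of 3.21, 3.21, 3.26 and 3.58 in siLox cells at the probe at 1553, against 4.12, 3.78, 3.74 and 3.61 in scr cells. At the probe at 2075, its levels were 4.89, 4.98, 5.10 and 5.38 in siLox cells, against 5.79, 5.60, 5.56 and 5.35 in scr cells. The groups were separate at 1553 by the narrow gap between the replicates 4, and they overlapped at 2075 through the same replicates. Loxl1 fell by 0.50 ± 0.13 on the log2 scale at 1553 (adjusted p = 0.0380) and by 0.49 ± 0.13 at 2075 (adjusted p = 0.0395, exact permutation p = 0.0571), signals of 70.9% and 71.3% of scr. Without replicate 4 of both groups, the changes were -0.65 and -0.66.

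Loxl2, which oxidises collagen IV among other substrates, had levels of 5.78, 5.51, 5.62 and 6.03 in siLox cells at its brightest probe, at 4792, against 6.80, 6.47, 6.42 and 6.09 in scr cells. Every siLox array lay below every scr array there. Loxl2 fell by 0.71 ± 0.17 on the log2 scale at this probe (adjusted p = 0.0282), a signal of 61.0% of scr. At 2212 the levels were 4.31, 4.71, 4.69 and 4.99 in siLox cells, against 5.35, 5.14, 5.26 and 4.92 in scr cells. At 2293 they were 3.73, 4.18, 4.08 and 4.39 in siLox cells, against 4.80, 4.54, 4.61 and 4.34 in scr cells. Both sets overlapped through the replicates 4, and neither passed, with log2 fold changes of -0.49 ± 0.16 (adjusted p = 0.0577) and -0.48 ± 0.16 (adjusted p = 0.0641). Without replicate 4 of both groups they were -0.68 and -0.65, and both passed.

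Loxl3 and Loxl4 did not pass between siLox and scr, although the Loxl4 probe at 3413 did with normexp background correction (adjusted p = 0.0438) and in a single fit of 16 arrays (adjusted p = 0.0134). Loxl3, a relative of Loxl2 whose loss in mice is known to disturb craniofacial and muscle development, had levels of 2.53, 2.54, 2.57 and 2.79 in siLox cells, against 2.83, 2.64, 2.61 and 2.49 in scr cells. The groups overlapped, and the 95% interval of the log2 difference was -0.26 to 0.19. Loxl4, another member with scavenger receptor domains, had levels of 1.20, 1.31, 1.26 and 1.10 in siLox cells at 3413, against 1.33, 1.46, 1.45 and 1.44 in scr cells. Every siLox array lay below every scr array at that probe, but its log2 fold change of -0.20 ± 0.07 had an adjusted p of 0.0709. At 4826 the levels were 1.86, 1.67, 1.54 and 1.48 in siLox cells, against 1.31, 1.50, 1.65 and 1.59 in scr cells. These groups overlapped, with a log2 fold change of 0.12 ± 0.11 (adjusted p = 0.437) of the opposite sign, and the per-array difference of the 2 Loxl4 probes did not overlap between siLox and scr.

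The excess of the Lox change over that of its relatives was tested directly at the brightest probes. The Lox change minus the Loxl1 change was -2.43, and the Lox change minus the Loxl2 change was -2.21, on the log2 scale. Each had an exact two-sided permutation p of 0.0286, which was 0.0286 after Benjamini-Hochberg adjustment over 3 such tests, and the per-array differences did not overlap between the groups. The replicates 4 stood together at the family: replicate 4 was the highest siLox array at 8 of 10 probes and the lowest scr array at 8 of 10. The log2 mean signal of the 10 fibroblast markers also differed between these groups, at 6.06 to 6.47 on the siLox arrays, against 6.63 to 6.76 on the scr arrays, and its part in the Loxl1 and Loxl2 changes was not tested.

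**Figure D2:**
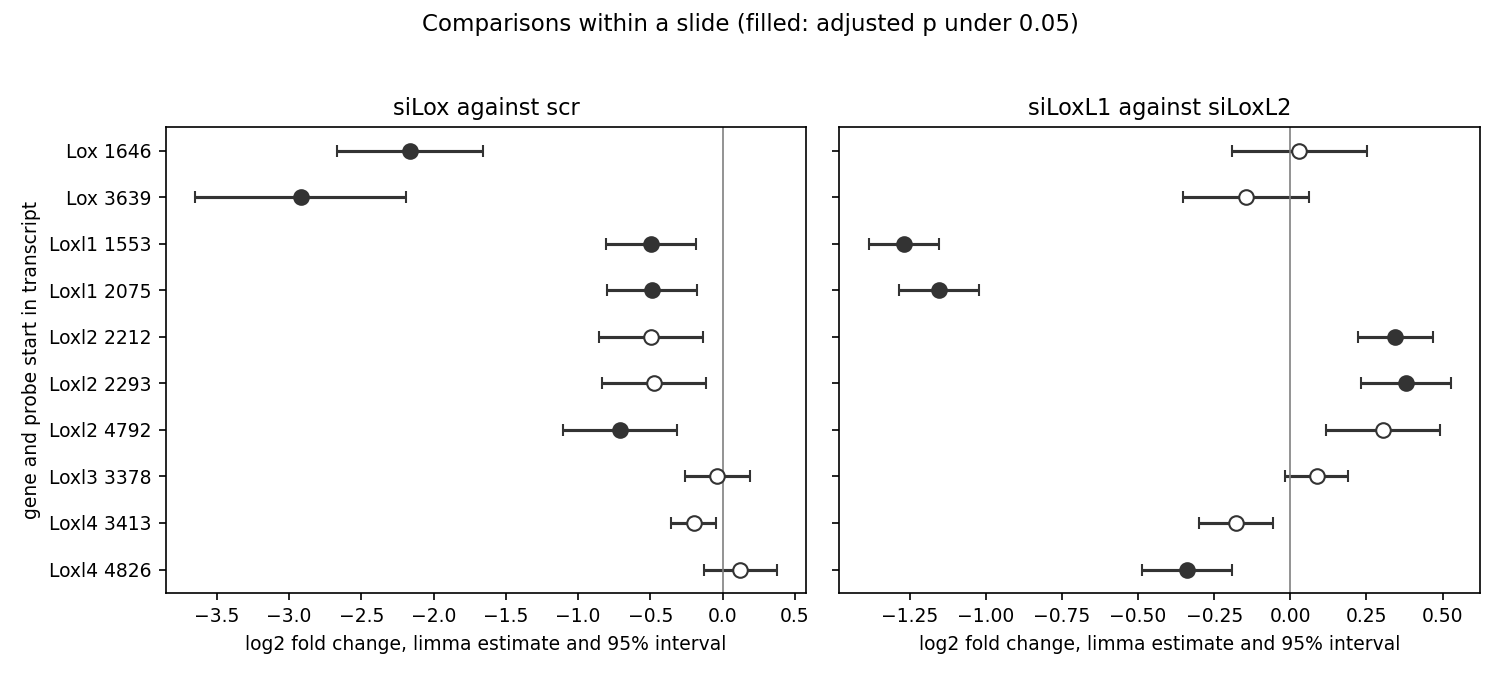
Log2 fold change of each lysyl oxidase probe with its 95% interval in the 2 comparisons within a slide, siLox against scr on the left and siLoxL1 against siLoxL2 on the right, on horizontal axes of different range. Filled points passed an adjusted p of 0.05, and 5 of 10 probes did so in each comparison.

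Between the 2 siRNAs on slide 2, Loxl1 was lower in siLoxL1 cells at both probes, and Loxl2 was lower in siLoxL2 cells at 2 of its 3 probes. The log2 mean signal of the 7 leukocyte and macrophage markers was 2.15 to 2.26 on the siLoxL1 arrays, against 2.28 to 2.41 on the siLoxL2 arrays, and its part in these results was not tested. The Loxl1 probe at 1553 had levels of 2.85, 2.76, 2.69 and 2.87 in siLoxL1 cells, against 4.06, 4.06, 4.02 and 4.08 in siLoxL2 cells. The probe at 2075 had levels of 4.54, 4.54, 4.60 and 4.72 in siLoxL1 cells, against 5.65, 5.80, 5.79 and 5.78 in siLoxL2 cells. Both pairs of groups were far apart compared with their spread. Loxl1 fell by 1.27 ± 0.05 on the log2 scale at 1553 (adjusted p = 6.8e-05) and by 1.15 ± 0.06 at 2075 (adjusted p = 0.000223). By p-value these were the probes ranked 3 and 4 of the 32430 tested. The signals were 41.5% of siLoxL2 (95% interval 38.3% to 45.0%) and 44.9% (41.0% to 49.2%), and the exact permutation p was 0.0286 at each. The per-array differences of the 2 Loxl1 probes overlapped between the groups in all 6 comparisons, and their fold changes were never more than 0.11 apart.

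Loxl2 had levels of 4.00, 4.04, 4.00 and 4.14 in siLoxL1 cells at the probe at 2212, against 3.67, 3.74, 3.62 and 3.77 in siLoxL2 cells. At 2293 its levels were 3.20, 3.42, 3.39 and 3.44 in siLoxL1 cells, against 2.98, 2.99, 2.91 and 3.06 in siLoxL2 cells. At 4792 they were 5.59, 5.81, 5.61 and 5.73 in siLoxL1 cells, against 5.25, 5.58, 5.35 and 5.35 in siLoxL2 cells. Every siLoxL2 array lay below every siLoxL1 array at all 3 probes. The log2 fold change of siLoxL1 over siLoxL2 was 0.34 ± 0.05 (adjusted p = 0.0146) at 2212 and 0.38 ± 0.06 (adjusted p = 0.0182) at 2293. It was 0.30 ± 0.08 (adjusted p = 0.0645) at 4792, the brightest probe, which did not pass. At 2212 and 2293 the calls were lost with all non-control probes tested (adjusted p = 0.0514 and 0.0599) and in the fit of 16 arrays (0.155 and 0.124). The Loxl1 change minus the Loxl2 change, at the brightest probes, was -1.46 on the log2 scale, with an exact permutation p of 0.0286 before and after adjustment over 3 tests. The changes have opposite signs, so that this difference is the sum of their sizes and does not compare the sizes.

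Of the other members, Loxl4 was lower in siLoxL1 than in siLoxL2 cells at 1 of its 2 probes. At 4826 its levels were 0.65, 0.64, 0.62 and 0.71 in siLoxL1 cells, against 1.14, 0.85, 0.98 and 1.02 in siLoxL2 cells, and it fell by 0.34 ± 0.06 on the log2 scale (adjusted p = 0.0255). That call was lost without siLoxL1 replicate 1, 2 or 3 or siLoxL2 replicate 3 or 4, with adjusted p up to 0.0753, with all non-control probes tested (0.0794) and in the fit of 16 arrays (0.0604). At 3413 its levels were 0.71, 0.65, 0.74 and 0.78 in siLoxL1 cells, against 0.78, 0.96, 0.92 and 0.92 in siLoxL2 cells, with a log2 fold change of -0.18 ± 0.05 (adjusted p = 0.0821). The groups did not overlap at either Loxl4 probe. Loxl3 had levels of 2.48, 2.49, 2.46 and 2.44 in siLoxL1 cells, against 2.30, 2.37, 2.46 and 2.40 in siLoxL2 cells, and its log2 fold change of 0.09 ± 0.04 (adjusted p = 0.265) did not pass. The Lox probe at 1646 ranged from 4.10 to 4.39 in siLoxL1 cells, against 4.06 to 4.44 in siLoxL2 cells, and the one at 3639 from 4.53 to 4.93, against 4.82 to 4.96. Both overlapped, and the 95% intervals of the log2 difference were -0.19 to 0.25 and -0.35 to 0.06.

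In all, 5 of 10 family probes passed between siLoxL1 and siLoxL2, 3 of them lower and 2 higher, where 6.73% of all tested probes passed, 2.32% lower and 4.41% higher. Of the 5, Loxl1 1553 and 2075 and Loxl2 2212 and 2293 belong to the genes that these siRNAs target. Only Loxl4 4826 belongs to a member that neither targets. Groups did not overlap at 7 of 10 probes, against 19% of all tested probes. Of all the probes that passed, 65.5% were higher in siLoxL1, a share that was 40.8% when the percentile was taken over probes above background on all arrays and 55.7% with quantile normalization. Leaving out siLoxL1 replicate 2, siLoxL1 replicate 3 or siLoxL2 replicate 3 left 3 family probes, both of Loxl1 and Loxl2 2212, while 1.75%, 2.46% and 2.33% of all tested probes passed. Leaving out siLoxL1 replicate 1 or siLoxL2 replicate 4 left 4, while 2.93% and 1.75% of all tested probes passed. Leaving out siLoxL2 replicate 2 gave 6, with the Loxl2 probe at 4792 then at 0.37 (adjusted p = 0.0427), while 2.85% of all tested probes passed.

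Against scr, the siLoxL1 and siLoxL2 arrays can be compared only across slides, and both comparisons share the scr arrays. Between siLoxL1 and scr 59.2% of all tested probes passed, and between siLoxL2 and scr 58.3%, so that the 9 and 8 family probes that passed stand against a high background. The median log2 fold change of all probes was 0.18 for siLoxL1 and 0.16 for siLoxL2 and moved to -0.16 for both with normexp background correction. Of the probes that passed, 65.1% were higher in siLoxL1 than in scr and 39.6% with normexp, and 62.9% were higher in siLoxL2 than in scr and 38.4% with normexp. Quantile normalization gave 55.0% for siLoxL1 and 52.9% for siLoxL2. Markers of other cell types moved with these comparisons, and their part in the results was not tested. The log2 mean signal of leukocyte and macrophage markers was 2.15 to 2.26 in siLoxL1 and 2.28 to 2.41 in siLoxL2, against 1.67 to 1.84 in scr. That of mesothelial markers was 2.04 to 2.16 in siLoxL1 and 2.04 to 2.22 in siLoxL2, against 1.31 to 1.44 in scr. That of epithelial markers was -3.87 to -3.45 in siLoxL1 and -3.87 to -3.66 in siLoxL2, against -0.56 to 0.02 in scr. Of these 7 epithelial markers only the keratins Krt8 and Krt18 were above background, and the other 5 were so on no array.

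Lox had levels of 4.10, 4.27, 4.18 and 4.39 in siLoxL1 cells and of 4.06, 4.44, 4.18 and 4.15 in siLoxL2 cells at the probe at 1646, all above the scr arrays. At 3639 it had 4.53, 4.86, 4.68 and 4.93 in siLoxL1 cells and 4.86, 4.96, 4.82 and 4.94 in siLoxL2 cells, again above scr. The log2 fold changes over scr were 0.47 (adjusted p = 0.00696) and 0.68 (adjusted p = 0.000917) for siLoxL1, and 0.44 (adjusted p = 0.0142) and 0.83 (adjusted p = 7.4e-05) for siLoxL2, in the order of the probes. Relative to the median of all probes they were 0.29 and 0.51 for siLoxL1 and 0.29 and 0.67 for siLoxL2. At 1646 neither passed under quantile normalization, with values down to 0.24 for siLoxL1 and 0.27 for siLoxL2, whereas at 3639 both passed under every scaling tried.

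In scaled levels, Loxl1 was lower in siLoxL1 cells than in scr cells, by 1.02 ± 0.11 at 1553 and by 0.98 ± 0.10 at 2075 on the log2 scale. The scaled signals were 49.3% and 50.8% of scr. Before scaling, the Loxl1 signals of these groups overlapped. They were 5634 to 6989 against 5264 to 8250 at 1553, and 20980 to 25217 against 17618 to 26382 at 2075. In siLoxL2 cells, Loxl1 gave no call against scr, with 95% intervals of the log2 difference of 0.0025 to 0.49 at 1553 and -0.05 to 0.40 at 2075. Before scaling, every siLoxL2 array lay above every scr array at both Loxl1 probes. At 2075 the log2 difference between siLoxL2 and scr ran from -0.06 to 0.32 over the alternatives, and it passed with normexp (adjusted p = 0.00997). At 1553 it passed with normexp (adjusted p = 0.0242) and in the fit of 16 arrays (adjusted p = 0.0489). Without scr replicate 1, Loxl1 passed at both probes in siLoxL2 cells, at 0.35 (adjusted p = 0.00239) and 0.25 (adjusted p = 0.0320). In scaled levels, Loxl2 was lower than in scr at all 3 probes with either siRNA. Its log2 fold changes were -1.12, -1.21 and -0.76 at 2212, 2293 and 4792 in siLoxL1 cells, and -1.47, -1.59 and -1.06 in siLoxL2 cells, where the scaled signals were 36.2%, 33.3% and 47.8% of scr. Before scaling, siLoxL1 and scr cells overlapped at all 3 Loxl2 probes, and siLoxL2 and scr cells overlapped at 4792. At 2212 and 2293, every siLoxL2 array lay below every scr array before scaling too. The signals were 10981 to 11972 against 13060 to 19348 at 2212, and 6742 to 7301 against 8753 to 13242 at 2293. The Loxl2 probe at 4792 stood apart from the others across the slides. Its change was smaller in size than that of 2212 and 2293 by 0.36 and 0.45 in siLoxL1 cells and by 0.40 and 0.52 in siLoxL2 cells, and the per-array differences did not overlap.

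Loxl4 was lower than in scr at both probes, with log2 fold changes of -0.70 and -0.85 in siLoxL1 cells and of -0.52 and -0.52 in siLoxL2 cells. In scaled levels, every siLoxL1 and siLoxL2 array lay below every scr and every siLox array at both Loxl4 probes. The signal before scaling did not show this. At 3413 it was 1415 to 1640 in siLoxL1 and 1577 to 1691 in siLoxL2 cells, against 1125 to 1300 in scr cells. At 4826 it was 1347 to 1567 in siLoxL1 and 1537 to 2015 in siLoxL2 cells, against 1156 to 1495 in scr cells. Loxl3 had a log2 fold change of -0.17 in siLoxL1 cells (adjusted p = 0.0875) and of -0.26 in siLoxL2 cells (adjusted p = 0.0264). Its signal before scaling was higher on every siLoxL1 and siLoxL2 array than on every scr array. Of these Loxl2 and Loxl4 results, none lost its call under any alternative, but every alternative also worked on scaled arrays. Loxl3 in siLoxL1 cells passed under 3 scalings and, at -0.22, without scr replicate 4. Of those scalings, quantile normalization and the value table of the authors hardly differ, with -0.301 in each. The Loxl3 probe at 3378 lost its call in siLoxL2 cells without siLoxL2 replicate 1, 2 or 4 or scr replicate 2, with values of -0.26 to -0.23.

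**Figure D3:**
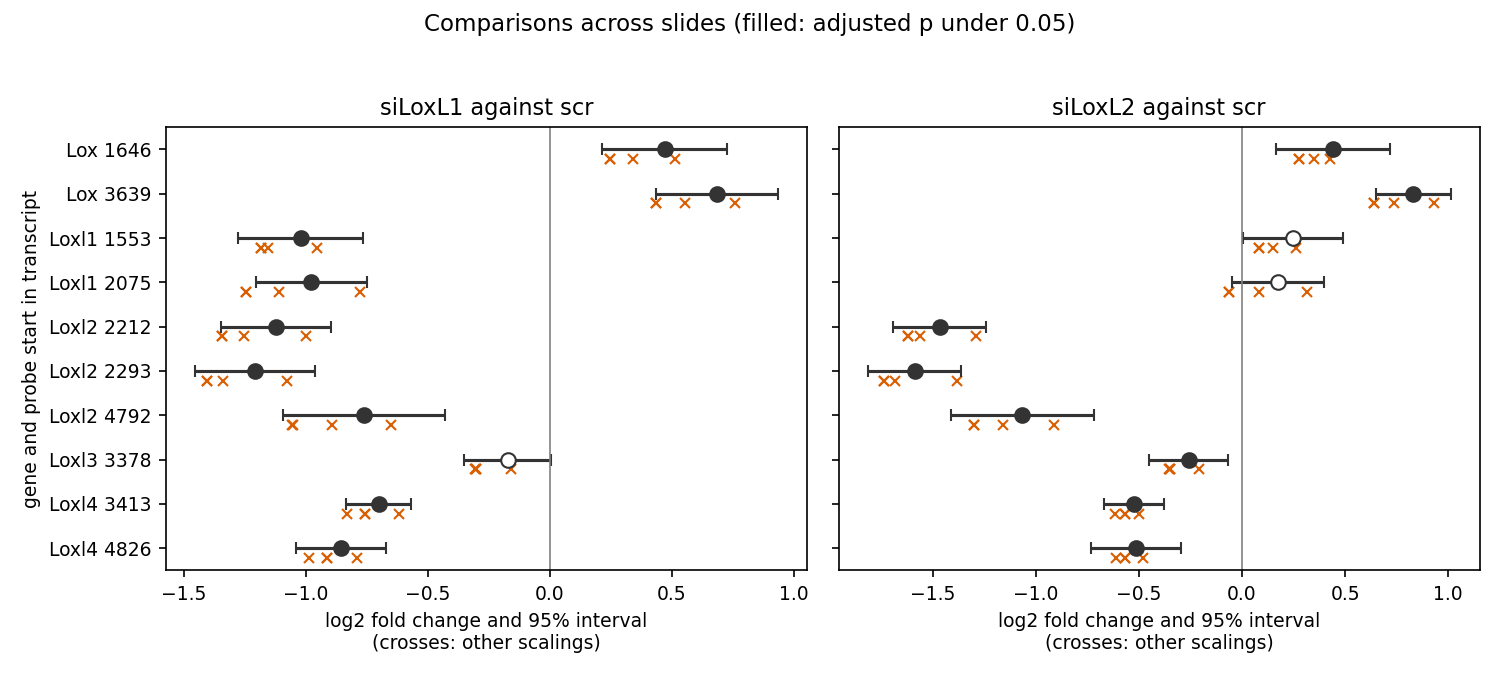
Log2 fold change of each lysyl oxidase probe over scr in siLoxL1 (left) and siLoxL2 (right), with the 95% interval as a bar. Filled points passed an adjusted p of 0.05, and orange crosses give the estimate under 4 other scalings of the arrays. Among these, quantile normalization and the value table of the authors hardly differ. The Loxl2 and Loxl4 probes lie below 0 under every scaling shown, and the Loxl1 probe at 2075 in siLoxL2 lies on both sides of it. Unscaled signals are not shown.

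Set against siLox cells across the slides, 8 of 10 family probes passed in siLoxL1 cells, where 70.7% of all tested probes passed, and 10 of 10 in siLoxL2 cells, where 70.1% did. Lox was higher by 2.64 and 3.61 on the log2 scale in siLoxL1 than in siLox cells, and by 2.61 and 3.75 in siLoxL2 than in siLox cells, at 1646 and 3639. In scaled levels, Loxl1 was lower in siLoxL1 than in siLox cells, with log2 fold changes of -0.53 and -0.49. It was higher in siLoxL2 than in siLox cells, with 0.74 and 0.66. Before scaling, the Loxl1 signal was higher in siLoxL1 than in siLox cells. It was 5634 to 6989 against 3992 to 4993 at 1553, and 20980 to 25217 against 13919 to 17389 at 2075. Loxl2 at 4792 differed by -0.05 between siLoxL1 and siLox with a 95% interval of -0.31 to 0.22 and ran from -0.39 to 0.05 over the alternatives, whereas at 2212 and 2293 it was lower, with log2 fold changes of -0.63 and -0.73. Before scaling, every siLoxL1 array lay above every siLox array at 2212 and 4792, and these groups overlapped at 2293. In siLoxL2 against siLox, the Loxl2 probe at 4792 (-0.35, adjusted p = 0.0319) lost its call without siLoxL2 replicate 1, 3 or 4 or siLox replicate 1 or 4, and also with normexp (-0.21, adjusted p = 0.0919), and it ran from -0.64 to -0.21 over the alternatives. The Loxl3 probe at 3378 (-0.22, adjusted p = 0.0246) lost its call there without siLoxL2 replicate 1 or 2.

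The order of the group means placed siLox lowest at both Lox probes and siLoxL1 lowest at both Loxl1 probes and both Loxl4 probes. It placed siLoxL2 lowest at all 3 Loxl2 probes and at Loxl3, where siLoxL2 overlapped with siLoxL1. At Lox, siLoxL2 and siLoxL1 cells overlapped at the top. At Loxl1, siLoxL2 and scr cells overlapped at the top, and siLox cells lay between them and siLoxL1 cells, overlapping with scr at 2075. At Loxl2, the order was scr, siLox, siLoxL1 and siLoxL2 at every probe, and siLox overlapped with scr at 2212 and 2293 but with siLoxL1 at 4792. These orders mix the 2 slides and rest on scaled levels. In signal before scaling, every siLox array lay below every siLoxL1 array at both Loxl1 probes. At Loxl2 4792 and at Loxl3, every siLox array then lay below every siLoxL1 and every siLoxL2 array. Over the alternatives, siLoxL1 against siLox ran from -0.39 to 0.05 at Loxl2 4792. At Loxl1 2075, siLoxL2 against scr ran from -0.06 to 0.32.

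Genes that supply, activate or use these enzymes were read from 5 lists, with the brightest probe standing for a gene. Between siLox and scr, 22.4% of all 22644 genes passed, 10.4% higher and 12.1% lower, and the median log2 fold change of all genes was -0.05. Over all 5 lists, 1 of 48 measured genes was higher and 17 were lower. The measured genes include Atp7b and Tgm1, which were above background on 0 siLox and 0 scr arrays.

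Of the genes of proteolytic activation and docking, 6 of 14 measured members fell in siLox cells and 1 rose, with a median of -0.36. Fmod, a proteoglycan that binds collagen and Lox, had a level of -1.80 ± 0.38 in siLox cells, against -0.63 ± 0.35 in scr cells (SD, n = 4 each), and fell by 1.17 ± 0.23 on the log2 scale. Pcolce2, an enhancer of the procollagen C-proteinases, ranged from 1.22 to 1.35 in siLox cells, against -0.13 to 0.84 in scr cells, and rose by 0.91 ± 0.19. Fbln5, a fibulin that brings elastin and Loxl1 together, fell by 0.68 ± 0.14, and Fbln1, another fibulin, by 0.60 ± 0.13. The Fbln5 groups did not overlap, at 5.28 to 5.70 in siLox cells, against 5.84 to 6.43 in scr cells.

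Of the copper supply, 3 of 9 measured genes fell and 0 rose, with a median of -0.19. Slc31a1, the copper importer of the plasma membrane, ranged from 2.08 to 2.27 in siLox cells, against 2.65 to 2.94 in scr cells, and fell by 0.67 ± 0.08 on the log2 scale. Atp7a, the pump that loads secreted enzymes with copper, ranged from 1.98 to 2.08 in siLox cells, against 2.37 to 2.50 in scr cells, and fell by 0.40 ± 0.06. Atox1, the chaperone that hands copper to that pump, fell by 0.38 ± 0.09.

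Of the substrates, 4 of 8 measured genes fell and 0 rose, with a median of -0.55. They were Col5a2 (a fall by 0.80 ± 0.21 on the log2 scale), Col4a1 (by 0.64 ± 0.12), Col4a2 (by 0.47 ± 0.09) and Col1a2 (by 0.46 ± 0.12), chains of fibrillar and basement membrane collagens. Of the other cross-linking enzymes and collagen hydroxylases, 4 of 15 measured genes fell and 0 rose, with a median of -0.34. The lysyl hydroxylases Plod1 and Plod3 fell by 0.64 ± 0.11 and 0.25 ± 0.07, the prolyl hydroxylase subunit P4ha2 by 0.58 ± 0.15 and the transglutaminase Tgm2 by 0.34 ± 0.10. Neither of the 2 measured copper amine oxidases outside the family passed, with -0.96 ± 0.30 for Aoc3 and -0.10 ± 0.14 for Aoc2. In the main fit the adjusted p was 0.0374 for Col5a2, 0.0470 for Plod3 and 0.0478 for Tgm2. Without replicate 4 of both groups, chosen after seeing the data, 8, 3, 7, 10 and 1 genes of the 5 lists, in this order, fell, while 31.9% of all genes passed, 16.9% lower. Leaving out replicate 1, 2 or 3 of either group left 5.41% to 12.4% of all tested probes past the threshold, against 21.1%. The share was 4.72% with all non-control probes tested and 0% with a block for the replicate number. List counts under these settings are not given here. The fibroblast markers that were lower on the siLox arrays include collagens of the substrate list.

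Between siLoxL1 and siLoxL2, where 7.11% of all genes passed, 2 of the 48 measured genes were higher and 1 was lower. Atp7a ranged from 2.50 to 2.53 in siLoxL1 cells, against 2.23 to 2.28 in siLoxL2 cells, and rose by 0.25 ± 0.04 on the log2 scale (adjusted p = 0.0112). Plod2, the lysyl hydroxylase of collagen telopeptides, rose by 0.28 ± 0.06 (adjusted p = 0.0316), and Plod1, which hydroxylates the helical part, fell by 0.23 ± 0.05 (adjusted p = 0.0306). None of the 14 genes of activation and docking and none of the 8 substrates passed. Among those, Fn1, fibronectin, on which Lox is known to dock, had levels of 8.25, 8.33, 8.28 and -2.60 in siLoxL1 cells, against 8.21, 8.23, 8.25 and 8.22 in siLoxL2 cells. Its fold change of -2.66 ± 2.35 on the log2 scale rests on 1 siLoxL1 array. Pcolce2 had 0.26 ± 0.07, Eln, the gene of elastin, -0.39 ± 0.15, and Col4a2 -0.12 ± 0.06, while Aoc2 and Aoc3 had 0.04 ± 0.07 and 0.04 ± 0.09.

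**Figure D4:**
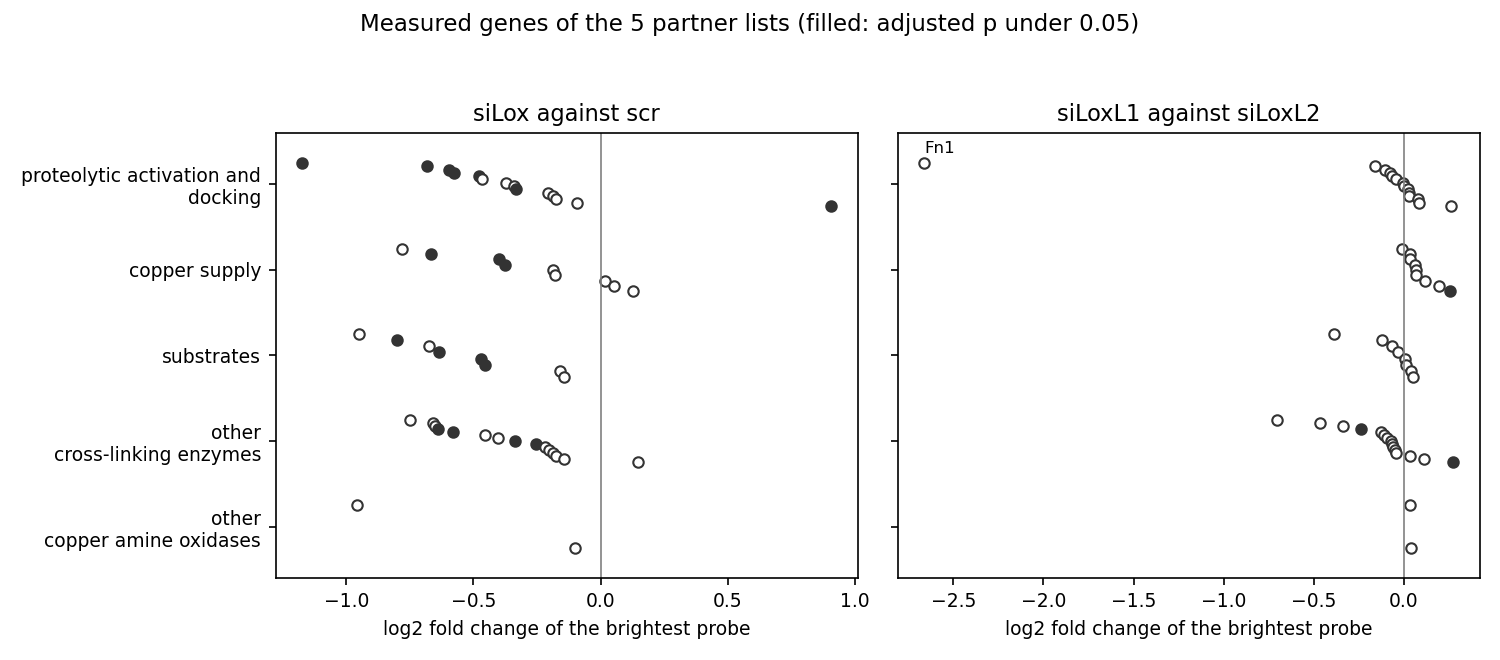
Log2 fold change of the 48 measured genes of the partner lists, each by its brightest probe, in siLox against scr (left) and siLoxL1 against siLoxL2 (right), on horizontal axes of different range. Filled points passed an adjusted p of 0.05: 18 of 48 on the left, 17 of them below 0, and 3 of 48 on the right. Fn1 on the right rests on 1 array.

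Genes with a pattern like that of each member were looked for among 14496 genes with a symbol, by Pearson's r with its brightest probe over the 16 arrays after the mean of each slide had been taken off. The arrays share their slide and group, so that these values are a description. For Lox they were Copz2 (r = 0.98, Spearman's rho = 0.96), ATP6 (r = 0.98, rho = 0.95) and Hoxb6 (r = 0.97, rho = 0.94). For Loxl1 they were Cd99l2 (r = 0.95, rho = 0.97), Tnfsf10 (r = 0.94, rho = 0.91), which was above background on 7 of 16 arrays, and Creld2 (r = 0.93, rho = 0.89). For Loxl2 they were Ccdc92 (r = 0.97, rho = 0.96), Ppa2 (r = 0.96, rho = 0.97) and Snx27 (r = 0.96, rho = 0.96). For Loxl3 they were Myo1d, Cdk14 and Peak1, with r of 0.93, 0.92 and 0.90, and for Loxl4 Faap24, Eif2a and Slc27a1, with r of 0.88, 0.88 and 0.87. Copz2 had a log2 fold change of -0.89 and Hoxb6 of -0.88 in siLox against scr, where the brightest Lox probe had -2.92. Within slide 1, which carried siLox and scr, r with Lox was 0.98 for Copz2, 0.99 for ATP6 and 0.98 for Hoxb6. Within slide 2 it was only 0.82, 0.58 and 0.52, in this order.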

How the data were processed

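Total RNA of 16 samples was labelled with Cy3 per the labels. The scanner files hold intensity values, read and background-subtracted with Agilent Feature Extraction 10.7.3.1 per the file headers. The value table deposited by the authors holds log2 values whose sorted columns differ by at most 0.00787 between arrays. Spot flags and probe coordinates (mm9) were taken from the scanner files, and symbols were updated through the RefSeq table for 1651 probes. Outlier spots were left out, spots of a probe averaged, and log2 values set relative to the 75th percentile of non-control probes per array. Of 55681 probes, 32430 (58.2%) were well above background on all 4 arrays of a group and usable on every array. Comparisons were fitted with limma 3.58.1 (R 4.3.3) on the 8 arrays of their groups, adjusted by Benjamini-Hochberg over all tested probes, with a threshold of 0.05. Alternatives were other scalings, all probes, a fit of 16 arrays, a replicate block and leaving out arrays; leaving out replicate 4 of both siLox and scr was chosen after seeing the data. The fit was tested on simulated data with 200 changed probes, far fewer than passed in the data. Between siLox and scr it recovered 21% of probes changed by 0.5 on the log2 scale and 80% of those changed by 2. Between siLoxL1 and siLoxL2 it recovered 64% and 90%. All family probes are named, and per partner list the up to 4 called genes of largest fold (2 of any kind if none was called), and 3 genes most like each member. Members, partner lists and this rule were chosen with earlier results of these data known.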

Additional observations from a re-analysis of the deposited data

Results flagged for a closer look

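In 4 of the 40 sets of 4 arrays (10 probes in 4 groups), 1 array lay far from the other 3, with a gap to its nearest neighbour, as a share of the whole range of the group, above Dixon's 95% critical value; chance gives about 1 in 20. In siLox, replicate 4 was the high array at the Loxl1 probe at 1553, with 0.866 of the range, and at the Loxl3 probe at 3378, with 0.836. In siLoxL2, replicate 1 was the low array at the Loxl1 probe at 2075, with 0.853. In scr, replicate 1 was the low array at the Loxl4 probe at 3413, with 0.858.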

How the results depend on the processing

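Across the alternatives, all of which work on scaled arrays, no family result that passed the threshold in the main fit changed its sign. Some that passed only under an alternative did. Loxl1 2075 ran from -0.06 to 0.32 between siLoxL2 and scr, and Loxl2 4792 from -0.39 to 0.05 between siLoxL1 and siLox. Between siLox and scr, the 5 family probes past the threshold became 2 with all non-control probes tested, 8 in a single fit of 16 arrays and 0 with the replicate block, and 2 to 7 when 1 array was left out. Under that block 0 of 32430 probes passed, against 6857 without it, and the brightest Lox probe kept -2.92 with an adjusted p of 0.0720, against 0.0747 for Lox 1646, 0.136 and 0.150 for Loxl1 1553 and 2075 and 0.113 for Loxl2 4792. Between siLoxL1 and siLoxL2, the 5 became 2 with all probes, 2 in the fit of 16 arrays and 3 with the block, and 3 to 6 when 1 array was left out; the brightest Loxl2 probe then ran from 0.26 to 0.37 and passed without siLoxL2 replicate 2. The numbers of all probes called there were 2182, 412 with all probes tested, 1033 in the fit of 16 arrays and 515 with the block, under which Loxl2 2293 (0.0544) and Loxl4 4826 (0.0602) lost their calls. Across slides the block ended the calls of Loxl3 between siLoxL2 and scr (0.0741) and of Loxl2 4792 between siLoxL2 and siLox (0.0776). Between siLox and scr the fit of 16 arrays called 12846 and the test of all probes 2622. The cause was not tested, except that the block and leaving out an array leave fewer degrees of freedom. Deviations of same-numbered arrays correlated at -0.15 to -0.0036 between siLox and scr and at 0.04 to 0.20 between siLoxL1 and siLoxL2, where 3 of 4 were over 0.1. The labels do not say what a number shares and not every pair was over 0.1, so that the numbers were not used to pair samples; whether they pair those of slide 2 was not settled. With normexp, 7 family probes passed between siLox and scr, where 24.8% of all probes did. The slide as a block could not be fitted across slides. Of the values of the main results, 188 kept their direction and side of the threshold or stayed within 1.5 times, 15 counts moved further, 1 value lost and 1 gained a call. Of those of single probes, 750 did, while 59 lost a call and 25 gained one. All family probes were well above background on every array.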
